A study of Mus musculus with 16 samples.

Results

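Leptomeningeal fibroblast-like nuclei were picked out of the medial prefrontal cortex (PFC) by the counts of a few marker genes. A nucleus was taken when it held at least 3 UMIs (unique molecular identifiers, each standing for 1 captured RNA molecule) summed over Col1a2, Dcn, Igf2, Slc6a13, Slc6a20a and Bnc2, came from at least 2 of these genes, had at most 1 UMI of Slc17a7, Gad1 and Gad2 together, and had at most 1 UMI of Aqp4, Mag, Mog, Csf1r, P2ry12 and Flt1 together. The rule found 129 of 114512 nuclei, which is 0.113% of all nuclei and 0.0866% of all UMIs.

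The study asked how a history of alcohol intoxication acts on a mouse model of Alzheimer's disease. Single-nucleus RNA-Seq was run on 16 male mice of 22 weeks, 4 in each of 4 groups. WT control mice were wild type and not exposed to alcohol, and WT alcohol mice were wild type with repeated cycles of alcohol vapor. 3xTg-AD control mice carried human transgenes for mutant APP and tau, on a mixed B6;129 background, and were not exposed to alcohol, and 3xTg-AD alcohol mice had the same genotype and the vapor exposure. By the study's methods the vapor mice were injected with ethanol and pyrazole, an alcohol dehydrogenase inhibitor, and the unexposed mice received pyrazole and air. The promoter of the APP and tau transgenes, a Thy1 cassette, is a neuronal one, so these nuclei are not its intended site of expression. Mice are named by the group and the number in their labels.

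The leptomeninges, the pia and arachnoid, wrap the brain, follow its larger vessels inward, and hold fibroblasts that build collagen and basement membrane. Their cells also form part of the barrier between blood and cerebrospinal fluid, carry transporters that clear small molecules from that fluid, and make prostaglandin D2 synthase, one of its abundant proteins. Cortex dissected for sequencing holds few of them, and how much of the surface stays with the tissue can vary from mouse to mouse.

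The genes of the rule were far above their level in the other nuclei, which the choice itself fixes and which is given as a description. Levels are UMIs summed over nuclei per 1000000 UMIs of the same nuclei (CPM). Slc6a13, a GABA and taurine transporter of the leptomeninges, held 164 UMIs in 89 of the 129 nuclei, a level of 873 CPM against 1.36 CPM in all other nuclei. Slc6a20a, a transporter of proline and other imino acids, held 151 UMIs in 82 nuclei, or 804 CPM against 3.52 CPM. Col1a2, a chain of type I collagen, stood at 559 CPM against 3.47 CPM. Igf2, a growth factor made by the meninges, stood at 543 CPM against 3.28 CPM, and Dcn, the collagen-binding proteoglycan decorin, at 373 CPM against 2.56 CPM. Bnc2, a zinc finger transcription factor, was the sparsest, with 23 UMIs in 16 nuclei. Most nuclei were chosen on few molecules, since 60 of them held UMIs of 2 of these genes, 51 of 3, 14 of 4 and 5 genes were seen in 4 nuclei.

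Nuclei on either side of the threshold differed in the level of Ptgds, which the rule did not use. The 52 nuclei with exactly 3 marker UMIs had a summed Ptgds level of 16120 CPM, and the 45 nuclei with at least 5 had 34370 CPM. Just outside, 80 nuclei with 2 marker UMIs from 2 genes had 9062 CPM of Ptgds and 503 CPM of Cped1, so the rule also left out nuclei that carried these genes. Both levels were lower than in the 52 nuclei with exactly 3 marker UMIs, which had 801 CPM of Cped1. Meg3, a long noncoding RNA, and Slc1a2, an astrocyte marker, were higher outside, at 3212 and 1119 CPM, than in those 52 nuclei, at 913 and 609 CPM. This was no steady fall with marker UMIs. The 32 nuclei with exactly 4 marker UMIs had 5155 CPM of Meg3, more than outside, and 716 CPM of Slc1a2. The 45 nuclei with at least 5 had 1321 and 850 CPM. A further 49 nuclei passed the marker part of the rule but held more than 1 UMI of the neuron genes, 26 held more than 1 UMI of the glial and endothelial genes, and 14 exceeded both limits. Of the 129 nuclei taken, 66 had no UMI of any of the 9 excluded genes. The nuclei were shallow, with 651 to 5109 UMIs each and a median of 1159 UMIs and 827 genes, against a median of 1543 UMIs over all nuclei. Of their cell barcodes, 3 also occurred in another mouse, and none was taken in more than 1 mouse.

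Leptomeningeal markers outside the rule followed the label. All 20 of them stood at least 10-fold above the other nuclei, with a median fold of 101.6, where 3.71% of all 19999 genes did so and the median gene stood at 0.70-fold. No test was made of the 129 nuclei against the rest, because any gene that goes with the rule genes would differ. Of the 20 markers, 17 had at least 10 UMIs in these nuclei. Summed, the 20 stood at 28841 CPM here and at 284 CPM in the other nuclei. In mural nuclei, chosen by markers of their own, they summed to 1721 CPM, so some are shared with that class. Cped1, a gene of unsettled function found in fibroblasts, reached 788 CPM against 6.04 CPM, and Ranbp3l, a Ran-binding protein, 724 CPM against 8.10 CPM. Slc13a4, a sulfate transporter, stood at 389 CPM and 230-fold, and Slc22a6, the organic anion transporter OAT1, at 229 CPM and 198-fold. Among transcription factors of the meningeal mesenchyme, Foxd1 stood at 320 CPM and 138-fold, Foxc1 at 272 CPM and 84.8-fold, and Tbx18 at 117 CPM and 210-fold. Aldh1a2, which makes retinoic acid, was 186-fold above the other nuclei, Col3a1, a fibrillar collagen, 278-fold on 14 UMIs, and Lama1, a laminin chain of the pial basement membrane, 102-fold. Ogn, a small proteoglycan, stood at 105-fold, Slc47a1, a proton-coupled organic cation exporter, at 101-fold and Col1a1, the partner chain of Col1a2, at 71.2-fold. The weakest of the 20 were Fbln1, a matrix glycoprotein, at 16.5-fold, and Tbx15, a mesenchymal transcription factor, at 19.2-fold on 1 UMI.

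With the rule genes left out, the 20 leading genes with at least 100 UMIs were headed by Cped1 (131-fold), Aebp1 (128-fold) and Ptgds (107-fold). Ptgds, on chromosome 2 from 25466709 to 25470046 (GRCm38, minus strand), encodes lipocalin-type prostaglandin D synthase and was the most abundant of them, with 23361 CPM against 218 CPM in the other nuclei. Aebp1, a collagen-binding matrix protein, reached 549 CPM against 1.80 CPM in endothelial and 12.6 CPM in mural nuclei chosen by their own markers. Apod, a secreted lipid carrier, stood at 1406 CPM and 60.5-fold, and Slc7a11, the cystine/glutamate exchanger, at 1944 CPM and 53.8-fold. Mgp, an inhibitor of matrix mineralization, was 33.9-fold higher, and Neat1, the long noncoding RNA of paraspeckles, 20.7-fold. Apoe, a lipid carrier mainly of astrocytes, was high at 3941 CPM but only 3.07-fold above the other nuclei. Ptgds had UMIs in these nuclei in 15 of the 16 mice.

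**Figure D1:**
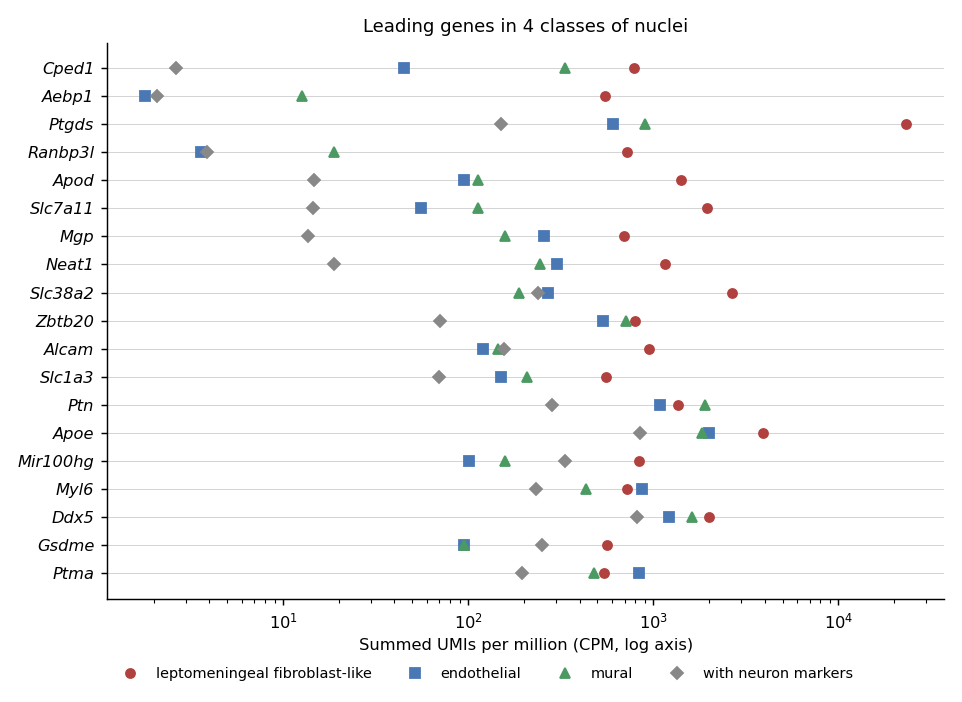
Summed CPM (log axis) of 19 of the 20 leading genes in 4 classes of nuclei pooled over all 16 mice, with circles for the 129 leptomeningeal fibroblast-like nuclei, squares for 378 endothelial nuclei, triangles for 159 mural nuclei and diamonds for 24057 nuclei with neuron markers. Ptgds lies farthest right at 23361 CPM, and genes such as Ranbp3l and Aebp1 are separated from all 3 other classes, while Ptn, Myl6 and Ptma are not.

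Depth was made equal by thinning nuclei to 600 UMIs, which removes no stray RNA, and 1 endothelial nucleus and 14 nuclei with neuron markers below that depth were left out. At that depth 80.6% of the 129 nuclei held a Ptgds UMI, against 14.3% of endothelial nuclei, 15.1% of mural nuclei and 7.52% of nuclei with neuron markers. Before thinning the shares were 86.8%, 26.2%, 20.8% and 22.8%, at median depths of 1159, 1135.5, 846 and 2714 UMIs. Whether the low share of Ptgds in nuclei with neuron markers came from RNA outside the nuclei was not tested. Ranbp3l was found in 34.1% of the leptomeningeal nuclei and in 0.265%, 0.629% and 0.237% of the other classes. Slc7a11 was found in 59.7% against 0.844% of nuclei with neuron markers. Snap25, a synaptic vesicle fusion protein of neurons, was found in 48.8% of the leptomeningeal nuclei, 43.0% of endothelial nuclei, 49.7% of mural nuclei and 49.8% of nuclei with neuron markers. Meg3, an imprinted long noncoding RNA abundant in neurons, was found in 27.9% against 88.2%.

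Ptgds was spread unevenly over the 129 nuclei. It was missing from 17 of them, had 1 to 9 UMIs in 32 and at least 10 in 80, with a median of 13 UMIs and a highest value of 580. The 10 nuclei with the most held 49.4% of all its UMIs. Ptgds was not a safe marker alone, since 339 nuclei outside the 129 also had at least 10 Ptgds UMIs, of which 176 were above a limit for another cell type and 141 had no UMI of a rule gene.

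Many genes of the extracellular matrix stood high. Of 24 proteoglycans and matrix glycoproteins, 20 stood above the other nuclei and 16 at least 10-fold, with Fn1, fibronectin, at 437 CPM and Sparc, a collagen-binding glycoprotein, at 277 CPM. Both were also high in endothelial nuclei, at 510 CPM and 408 CPM. Of 21 collagen genes outside the basement membrane list 17 stood higher and 8 at least 10-fold, and of 21 basement membrane genes 15 and 11. Col25a1 and Col6a1, at 149 CPM and 138 CPM, held 28 and 26 UMIs, more than Col1a1 with 20 and Col3a1 with 14, but were only 3.94-fold and 1.76-fold above the other nuclei. Agrn, the basement membrane proteoglycan agrin, was below them at 0.54-fold, whereas Lamb2, a laminin chain, stood at 149 CPM and 30.4-fold. Among 22 matrix-modifying enzymes and their inhibitors 17 stood higher, including Pcolce, which helps to process procollagen, at 132-fold and Timp3, a metalloproteinase inhibitor, at 511 CPM and 8.31-fold. Over all genes 38% stood higher in these nuclei than in the others.

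Transporters, signals and transcription factors gave a like picture. Of 39 membrane transporters 34 stood above the other nuclei, 18 of them at least 10-fold, and Slc38a2, a sodium-coupled neutral amino acid transporter, held 2674 CPM against 253 CPM. Of 34 genes of retinoic acid, BMP, TGF-beta and WNT signalling 28 stood higher, with Wnt5a, a secreted WNT ligand, at 25.6-fold and Cxcl12, a chemokine, at 9.14-fold but below the 1281 CPM of endothelial nuclei. Of 37 mesenchymal transcription factors 30 stood higher. Zic1 and Zic4, zinc finger factors of the meninges and the dorsal neural tube, reached 421 CPM and 362 CPM, close to the 492 CPM and 284 CPM of mural nuclei. Of 12 genes of the insulin-like growth factor system 11 stood higher, led after Igf2 by the binding proteins Igfbp2 at 277 CPM and Igfbp5 at 250 CPM. Only 1 of the 12 stood at least 10-fold higher, the median fold was 2.37, and their summed 1188 CPM was below the 1645 CPM of endothelial nuclei. Of 43 interferon and MHC class I genes 37 stood higher and 10 at least 10-fold, and Ifitm3, an interferon-induced membrane protein, had 170 CPM against 8.17 CPM in the other nuclei and 383 CPM in endothelial nuclei.

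Genes of the arachnoid, the pia and the dura were found to different extents. Of 11 arachnoid and barrier genes 10 stood higher and 7 at least 10-fold, among them Cdh1, E-cadherin, with 8 UMIs and 140-fold, and Cldn11, a tight junction protein, with 22 UMIs and 10.6-fold. Of 9 pial and perivascular fibroblast genes 7 stood higher and 2 at least 10-fold, with Col15a1 and Ngfr at 0 UMIs. Of 7 dural genes 4 stood higher and 2 at least 10-fold, with Dkk2 among those at 0 UMIs. With 187752 UMIs in all these nuclei, 0 UMIs does not show that a gene is absent.

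Markers of other cell types differed in how far they were found, and the limits of the rule on neuron, glial and endothelial genes fix part of this. Of 12 neuron markers 1 stood above the other nuclei, and their summed level was 3590 CPM against 5562 CPM. The endothelial markers summed to 288 CPM against 10038 CPM in endothelial nuclei. The pericyte and smooth muscle markers summed to 735 CPM against 5530 CPM in mural nuclei. All 9 pericyte and smooth muscle markers stood above the other nuclei, 6 of them at least 10-fold, with a median fold of 13.6. The rule sets no limit on mural genes. Pdgfrb, a growth factor receptor shared by pericytes and fibroblasts, had 85.2 CPM against 1084 CPM in mural nuclei. The astrocyte markers summed to 1859 CPM against 1506 CPM in the other nuclei, with 3 of 8 above them, and the microglia and macrophage markers to 160 CPM against 106 CPM, with 5 of 8 above. The oligodendrocyte markers summed to 421 CPM against 515 CPM, and 4 of 9 were at 0 UMIs, among them Mog, which the rule limits. Of the choroid plexus and ependymal markers 4 of 6 were at 0 UMIs, and Ttr, the abundant choroid plexus transthyretin, had 2 UMIs. Kl, klotho, held the other 13 UMIs of that list, so that the list summed to 79.9 CPM against 7.52 CPM. No class of astrocyte, oligodendrocyte or microglial nuclei was set beside these.

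The nuclei were not uniform. The 16 nuclei with Bnc2, from 10 mice, were noticed after the values were seen and are described without a test or a name. Slc47a1 was detected in 12 of these 16 nuclei (75%) and in 4 of the 113 without Bnc2 (3.54%), at 1554 CPM and 72.2 CPM. Slc38a2 was in all 16, or 8446 CPM, against 60.2% of the others, or 1332 CPM. Fn1 and Mgp were each found in 50.0% of the nuclei with Bnc2, against 10.6% and 20.4%, and Foxd1 in 62.5% against 29.2%. In the other direction Apod was found in 25% against 65.5%, Slc7a11 in 31.3% against 77.0% and Slc13a4 in 12.5% against 38.9%. Ptgds was lower in them, at 6864 CPM against 27194 CPM, and Aldh1a2 was not detected, against 18.6% of the others. Median depth was 1390.5 UMIs with Bnc2 and 1119 without, and its part in these shares was not tested. The Bnc2 nuclei came from all 4 groups, with 4 from WT control, 2 from WT alcohol, 5 from 3xTg-AD control and 5 from 3xTg-AD alcohol mice. These were 23.5%, 4.65%, 29.4% and 9.62% of the leptomeningeal nuclei of the group, a larger share in the control groups, which was not tested.

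**Figure D2:**
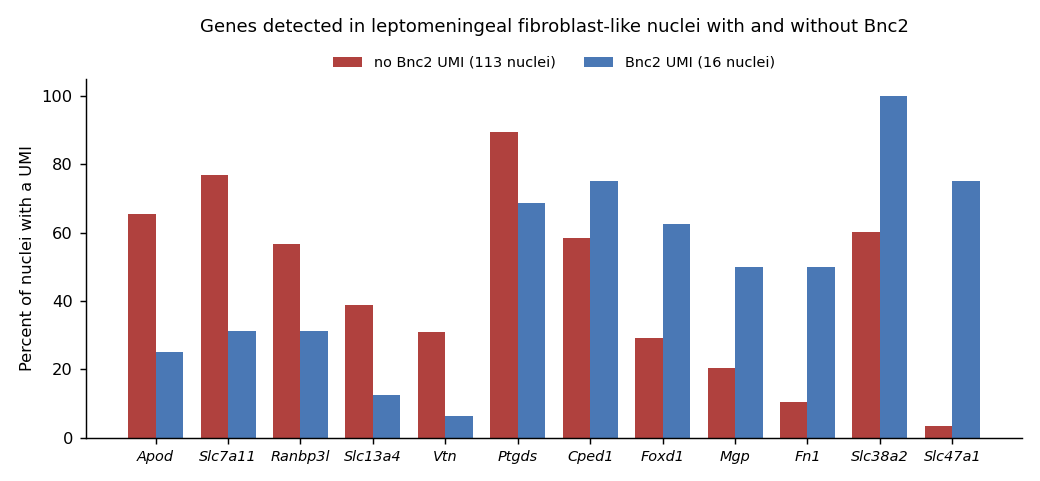
Percent of nuclei with at least 1 UMI of each gene among the 113 leptomeningeal fibroblast-like nuclei without a Bnc2 UMI (red) and the 16 with one (blue), pooled over mice, so that no error bar applies. Slc47a1 rises from 3.54% to 75% and Slc38a2 from 60.2% to 100%, while Apod falls from 65.5% to 25%.

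The number of leptomeningeal nuclei differed between mice. WT control mice 26, 27, 28 and 36 gave 9, 6, 1 and 1 nuclei, WT alcohol mice 6, 7, 17 and 18 gave 5, 11, 6 and 21, 3xTg-AD control mice 12, 13, 14 and 21 gave 4, 4, 1 and 8, and 3xTg-AD alcohol mice 4, 31, 33 and 34 gave 15, 9, 22 and 6. These came from 4955 to 9096 nuclei and 9622031 to 17544364 UMIs per mouse. As shares they were 0.129%, 0.121%, 0.0143% and 0.0155% of nuclei in WT control mice, 0.0561%, 0.168%, 0.0852% and 0.236% in WT alcohol mice, 0.0682%, 0.0558%, 0.0139% and 0.111% in 3xTg-AD control mice, and 0.165%, 0.125%, 0.242% and 0.121% in 3xTg-AD alcohol mice. The groups overlapped, except that each 3xTg-AD alcohol mouse was above each 3xTg-AD control mouse. Counting error was wide for single mice. For example, the exact Clopper-Pearson 95% interval was 0.000353% to 0.0777% for 3xTg-AD control mouse 14 and 0.152% to 0.366% for 3xTg-AD alcohol mouse 33, and such intervals cover counting error only.

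The share was 2.27 times higher in alcohol than in control mice, but this did not pass correction. It was 0.150% ± 0.0665 (SD, n = 8) with alcohol and 0.0660% ± 0.0493 (SD, n = 8) without (two-sided exact permutation test p = 0.0127, Benjamini-Hochberg adjusted over 7 comparisons p = 0.0892). Within 3xTg-AD mice it was 0.163% ± 0.0560 with alcohol and 0.0622% ± 0.0398 without (SD, n = 4 each), a ratio of 2.63, with an exact p of 0.0286, the smallest that 4 against 4 mice can give, and an adjusted p of 0.100. Within WT mice it was 0.137% ± 0.0818 and 0.0699% ± 0.0636 (SD, n = 4 each), a ratio of 1.95 (exact p = 0.257, adjusted p = 0.450). 3xTg-AD alcohol mice against WT controls gave a ratio of 2.34 (exact permutation test, adjusted p = 0.267). Genotype made little difference on average, with 0.113% ± 0.0703 in 3xTg-AD and 0.103% ± 0.0766 in WT mice (SD, n = 8 each, exact permutation test, adjusted p = 0.804). These comparisons share mice, so they are not independent of each other.

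**Figure D3:**
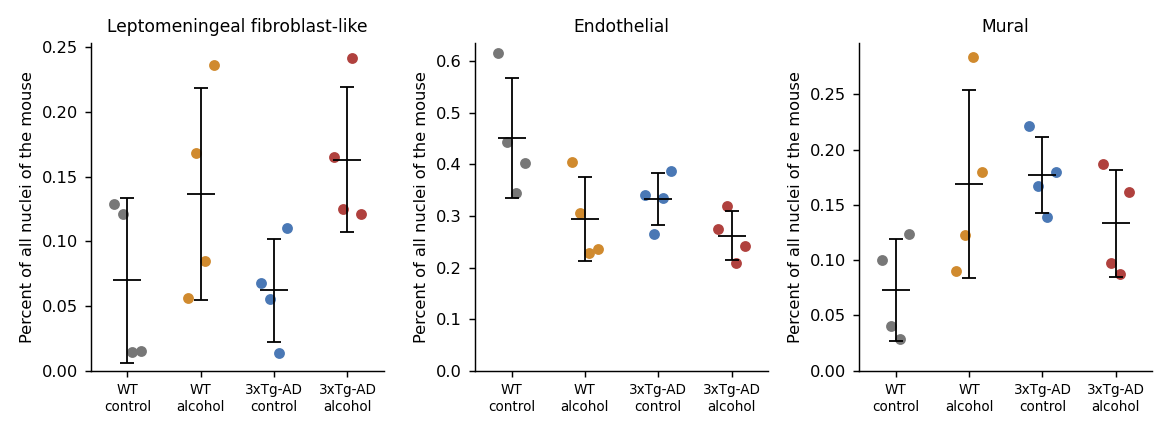
Percent of all nuclei of each mouse (points, 4 mice per group) that are leptomeningeal fibroblast-like, endothelial or mural, by group. The leptomeningeal share of the 4 3xTg-AD alcohol mice lies between 0.121% and 0.242%, above the 4 3xTg-AD control mice. The mean endothelial share is highest in WT control mice, which overlap the WT alcohol and 3xTg-AD control mice.

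Nuclei of vessel walls were taken by the same kind of rule. The endothelial share was 0.278% ± 0.0642 with alcohol and 0.392% ± 0.105 without (SD, n = 8 each, exact permutation test p = 0.0132, adjusted p = 0.0925), the opposite direction. The mural share was 0.151% ± 0.0669 and 0.125% ± 0.0670 (adjusted p = 0.514 by the exact permutation test). Within WT mice the mural share was 0.169% ± 0.0852 with and 0.0732% ± 0.0460 without alcohol (SD, n = 4 each), the same direction as the leptomeningeal share and a ratio of 2.31, and within 3xTg-AD mice 0.133% ± 0.0485 and 0.177% ± 0.0342, the opposite direction (exact permutation tests, adjusted p = 0.400 for each). Counted among leptomeningeal, endothelial and mural nuclei only, the leptomeningeal share was 15.4 percentage points higher with alcohol (exact permutation test, adjusted p = 0.0294). That denominator was chosen after seeing the data and holds the endothelial nuclei, whose share was lower with alcohol. At 5 marker UMIs, with no UMI of the excluded genes and with thinned nuclei, the mean share was also higher with alcohol in both genotypes. At 5 marker UMIs it was 0.0534% against 0.0208% in WT and 0.0590% against 0.0147% in 3xTg-AD mice. None of these settings was among the alternatives that passed. Without WT control mice 26 and 27 and 3xTg-AD control mouse 12, which stood apart in Gm42418, the alcohol difference in the share of all nuclei was 0.108 percentage points (exact permutation test, adjusted p = 0.0435), and without WT alcohol mouse 6 it was 0.0973 (adjusted p = 0.0305). WT control mice 26 and 27 had the highest shares of their group, 0.129% and 0.121%, so leaving them out also lowers the control level. How much pia stayed on each tissue block was not recorded in the labels, and its part in the share was not tested.

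The depth of the leptomeningeal nuclei, taken as the median per mouse, gave no difference that passed the test. The median per mouse was 1216 ± 219 UMIs with alcohol and 1120 ± 230 without (SD, n = 8 each, exact permutation test, adjusted p = 0.888). By the mean in place of the median the alcohol mice were 393 UMIs higher (exact permutation test, adjusted p = 0.0381).

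Leptomeningeal markers were then followed in the other nuclei, where stray RNA and leptomeningeal nuclei that the rule missed, and fewer cells and less RNA per cell, cannot be told apart. Of 18 markers that passed the filter on low counts, 18 were higher with alcohol averaged over genotypes, with a median log2 difference of 0.51, where the median over all 16743 genes was 0.007. None passed at an adjusted p of 0.05 by edgeR's quasi-likelihood test, 5 had an unadjusted p under 0.05, DESeq2 called 1, and 3.24% of all genes were called (0.985% as higher). Fbln1 came nearest, at a log2 difference of 0.70 (SE 0.19, edgeR adjusted p = 0.0519), followed by Slc26a7, Ogn, Apod and Adamtsl3. Mgp, a leading gene but not one of the 20 markers, rose by a log2 difference of 1.18 (SE 0.31, edgeR adjusted p = 0.0479). Without the 3 mice that stood apart in Gm42418, 6 of the 18 markers were called and the median log2 difference was 1.05, with Gm42418 as a covariate 3 were called and it was 1.14, and with any 1 mouse left out 14 to 18 markers were higher. Leaving out those 3 mice removes WT control mice 26 and 27, whose summed markers were the highest of the WT controls, at 465 and 284 CPM. The WT controls that remain, mice 28 and 36, stood at 76.5 and 157 CPM, so the larger difference does not bear on Gm42418 alone. By pairs of groups, 16 of 18 were higher in WT alcohol than in WT control mice (median log2 difference 0.56). In 3xTg-AD alcohol mice 17 of 18 were higher than in 3xTg-AD control (0.52), 11 than in WT control (0.02) and 6 than in WT alcohol mice (-0.42). With genotype 4 of the 18 were higher, at a median log2 difference of -0.24, and none was called, where 3.27% of all genes were called (1.52% as higher). That direction turned without the 3 Gm42418-rich mice, to 11 of 18 higher and a median of 0.12, and with Gm42418 as a covariate 8 of 18 were higher, at a median of -0.08.

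**Figure D4:**
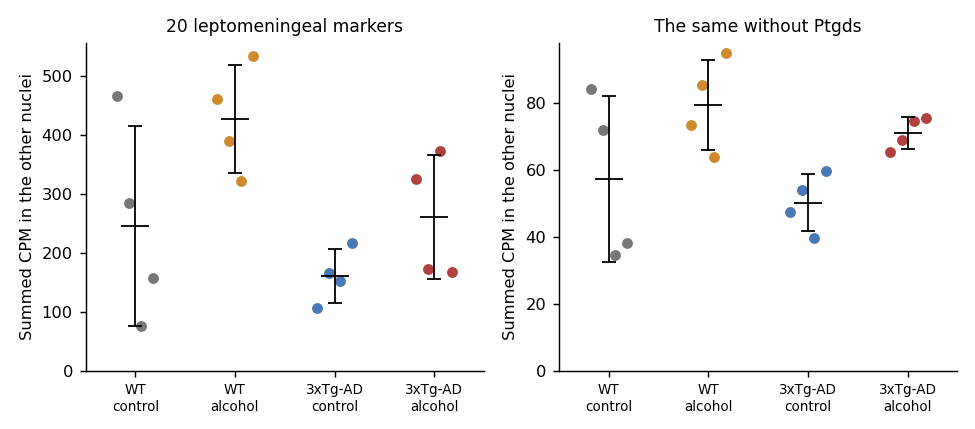
Summed CPM of the 20 leptomeningeal markers in the nuclei outside the 129, per mouse (points) and group (mean ± SD, n = 4), with Ptgds and without it. Without Ptgds the sums run from 34.5 to 84.2 CPM in WT control, 63.9 to 94.8 in WT alcohol, 39.7 to 59.5 in 3xTg-AD control and 65.2 to 75.5 in 3xTg-AD alcohol mice.

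Per mouse, most of that sum was Ptgds. In the other nuclei of WT control mice 26, 27, 28 and 36 the 20 markers summed to 465, 284, 76.5 and 157 CPM, in those of WT alcohol mice 6, 7, 17 and 18 to 461, 390, 322 and 533, in 3xTg-AD control mice 12, 13, 14 and 21 to 107, 165, 152 and 217, and in 3xTg-AD alcohol mice 4, 31, 33 and 34 to 325, 173, 373 and 168. The 2 WT control mice with 1 leptomeningeal nucleus each were also low here. 3xTg-AD control mouse 14, which also had 1, was not the lowest of its group, since mouse 12, with 4 nuclei, was lower. With Ptgds left out every 3xTg-AD alcohol mouse was above every 3xTg-AD control mouse, as in the share of nuclei.

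Expression within the leptomeningeal nuclei could be compared only for abundant genes. Counts were summed per mouse, 775 to 36507 UMIs, and 4 mice had at least 10 of these nuclei, so the comparison uses all 16 mice, 3 of which rest on 1 nucleus. After the filter on low counts 48 genes besides the rule gene Slc6a20a were tested, and the biological coefficient of variation was 0.402. Calls at an adjusted p of 0.05 (edgeR's quasi-likelihood test) were 3 genes (6.25%) between 3xTg-AD alcohol and WT control mice, 1 (2.08%) between 3xTg-AD alcohol and 3xTg-AD control, 2 (4.17%) between 3xTg-AD alcohol and WT alcohol, 1 (2.08%) for alcohol averaged over genotypes and 1 (2.08%) for the interaction. Meg3 was among the genes called against each WT group and the only one against 3xTg-AD control and for the interaction, and the filter bears on it as given below. There was none (0%) in 3xTg-AD control against WT control, WT alcohol against WT control or genotype averaged over alcohol by edgeR, with 2, 4 and 5 genes at an unadjusted p under 0.05 and with 0, 1 and 0 called by DESeq2. Of the 20 leptomeningeal markers outside the rule only Ptgds and Apod were abundant enough for the filter, which asked for 1193 CPM in at least 4 mice. Of the 48 genes 20 reached that level in fewer than 4 mice outside the group where most mice did, so they depended on that group to be tested.

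Ptgds was low in the WT control mice, which rest on 17 nuclei. In the leptomeningeal nuclei it stood at 11238, 5290, 1422 and 0 CPM in WT control mice, at 79344, 9969, 32530 and 30202 CPM in WT alcohol mice, at 8403, 11852, 10471 and 33880 CPM in 3xTg-AD control mice, and at 29713, 7668, 21640 and 15555 CPM in 3xTg-AD alcohol mice. The WT alcohol mice overlapped the WT controls in mouse 7 only. WT control mice 28 and 36 gave 1 nucleus each, with 2 and 0 Ptgds UMIs. In WT control mice 1 nucleus held 42.7% of the 164 Ptgds UMIs. In WT alcohol mice 1 nucleus held 27.9% of the 2081 Ptgds UMIs. The log2 difference of WT alcohol from WT control was 2.59 (SE 0.77, edgeR adjusted p = 0.0732), so it did not pass, whereas DESeq2 called it as the 1 gene of that comparison. With 1 mouse left out that comparison had a call in 14 of 16 cases, Ptgds in 3, Gm42418 in 1 and Lars2 in 12. Lars2 was not tested with all mice, and was lower with alcohol, at 4478, 3734, 0 and 0 CPM in the WT control and 911, 168, 241 and 642 CPM in the WT alcohol mice, so that WT control mice 26 and 27 carried the difference. The only other mouse above 1193 CPM was 3xTg-AD control mouse 12, at 2276 CPM. The filter asks for as many mice as the smallest group holds, so leaving 1 out let Lars2 in. It entered through control mice where it was high, and its calls are given as a description. Averaged over genotypes the alcohol difference of Ptgds was 1.48 (SE 0.52, edgeR adjusted p = 0.103). Nuclei with Bnc2 were a larger share of the control nuclei. Without them the pooled Ptgds level went from 8201 to 3797 CPM in WT control, the group where they held more of it, and from 32643 to 35597 CPM in WT alcohol, 20273 to 25208 in 3xTg-AD control and 20659 to 25102 in 3xTg-AD alcohol nuclei. Ptgds in nuclei with neuron markers was 197 ± 123 CPM with alcohol and 104 ± 85.8 CPM without, which did not pass (SD, n = 8 each, exact permutation test p = 0.0962, adjusted p = 0.3).

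The other lipid carriers also leaned upward with alcohol without passing. Apoe stood at 2283, 2334, 2845 and 1290 CPM in WT control mice and at 9105, 4608, 3494 and 3433 CPM in WT alcohol mice, groups that did not overlap. In 3xTg-AD mice it was 1926, 2092, 873 and 2951 CPM without and 4892, 1401, 5725 and 2828 CPM with alcohol, and these overlapped. The averaged log2 difference was 1.01 (SE 0.31, edgeR adjusted p = 0.0580). In the other nuclei mean Apoe was also higher with alcohol, at 1397 against 1091 CPM in WT and 1464 against 1073 CPM in 3xTg-AD mice. For Apod the averaged log2 difference was 0.99 (SE 0.42, edgeR adjusted p = 0.202), with no UMI in the nuclei of WT control mouse 36 and 3xTg-AD control mice 12 and 14. Mean Apod hardly differed in WT mice, at 1164 CPM without and 1310 CPM with alcohol, against 353 and 1500 CPM in 3xTg-AD mice.

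**Figure D5:**
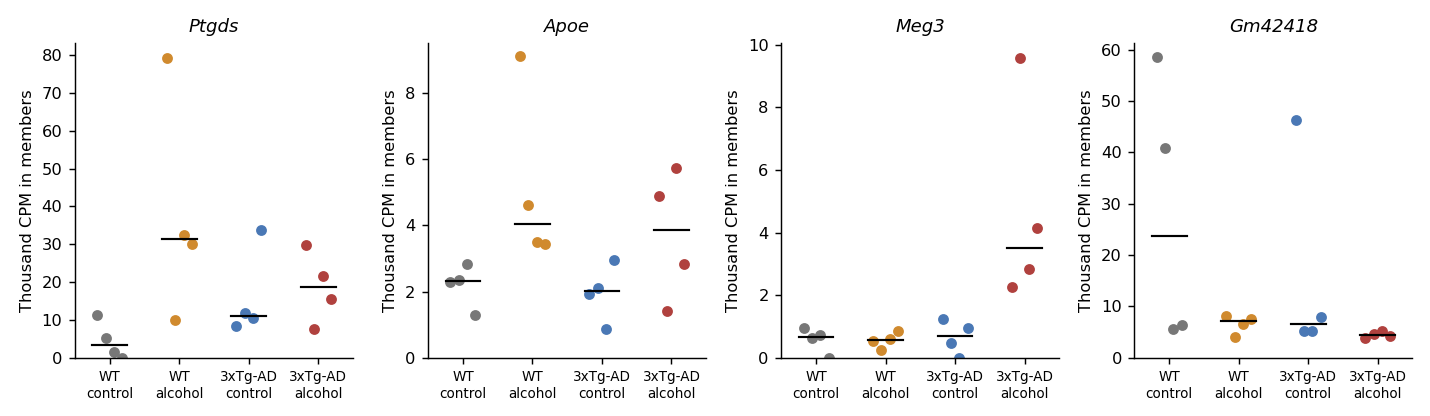
Level of Ptgds, Apoe, Meg3 and Gm42418 in the summed leptomeningeal fibroblast-like nuclei of each mouse (points, CPM divided by 1000, 4 mice per group, line at the group median). Meg3 is highest in the 4 3xTg-AD alcohol mice, at 2244 to 9586 CPM, and Gm42418 stands at 40921 to 58648 CPM in 3 control mice.

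Meg3 gave the largest differences. It lies on chromosome 12 from 109541001 to 109571726 (GRCm38, plus strand). Its level was 966, 622, 711 and 0 CPM in WT control mice, 520, 251, 602 and 865 CPM in WT alcohol mice, 1225, 465, 0 and 944 CPM in 3xTg-AD control mice, and 2244, 9586, 2849 and 4159 CPM in 3xTg-AD alcohol mice. All 4 3xTg-AD alcohol mice were above the other 12. Outside that group 1 mouse reached the 1193 CPM of the filter, so Meg3 entered the test through the group where it was high, and its calls are given as a description. The log2 difference was 2.73 (SE 0.60, edgeR adjusted p = 0.00198) from WT control, 2.90 (SE 0.58, edgeR adjusted p = 0.000378) from 3xTg-AD control and 3.21 (SE 0.53, edgeR adjusted p = 9.52e-06) from WT alcohol mice, and the interaction of genotype and alcohol was 3.37 (SE 0.89, edgeR adjusted p = 0.0225). With no filter on low counts the edgeR adjusted p-values were 0.0189, 0.0439 and 0.129 for the 3 differences, and the interaction was not called. With the 2 against 2 mice of at least 10 nuclei each, the log2 difference from WT alcohol was 1.89 (edgeR adjusted p = 0.000353).

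These Meg3 values rested on few nuclei, and the level in all other nuclei was 16806 CPM. The 3xTg-AD alcohol nuclei held 334 Meg3 UMIs, 126 of them in 1 nucleus and 65.0% in 3, and 22 of the 52 nuclei had any, which is 42.3% against 52.9% in WT control, 37.2% in WT alcohol and 41.2% in 3xTg-AD control mice. Over all groups Meg3 stood at 4433 CPM in the 49 nuclei with 1 UMI of Slc17a7, Gad1 or Gad2 and at 856 CPM in the 80 nuclei with none. Summed neuron markers, of which 11 of 12 had UMIs in these nuclei and Slc17a6 had none, ranged from 1422 to 5795 CPM in WT control, 2081 to 4337 in WT alcohol, 1745 to 4416 in 3xTg-AD control and 2917 to 4129 in 3xTg-AD alcohol mice. The part of neuronal RNA in the Meg3 difference was not tested. With any 1 mouse left out the interaction was lost in 13 of 16 cases, and it was 2.06 (edgeR adjusted p = 0.788) without the 3 mice that stood apart in Gm42418. The difference from WT control was not called with Gm42418 as a covariate (edgeR adjusted p = 0.187). With nuclei limited to those with no UMI of the 9 excluded genes, or to those with at least 5 marker UMIs, Meg3 did not pass the filter on low counts.

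Snhg11, a small nucleolar RNA host gene, was higher in 3xTg-AD alcohol mice than in both WT groups. It stood at 702, 467, 1422 and 0 CPM in WT control mice, 911, 1173, 1084 and 865 CPM in WT alcohol mice, 2101, 1394, 0 and 1299 CPM in 3xTg-AD control mice and 1167, 4719, 1890 and 4242 CPM in 3xTg-AD alcohol mice. The groups overlapped in places, and mice 31 and 34 stood highest. The log2 difference was 2.27 (SE 0.62, edgeR adjusted p = 0.0159) from WT control and 1.76 (SE 0.49, edgeR adjusted p = 0.0202) from WT alcohol mice. From 3xTg-AD control mice it was 1.45 (SE 0.53, edgeR adjusted p = 0.141), with 3xTg-AD alcohol mouse 4 below 3 of those 4 mice, and the interaction was 0.94 (SE 0.86, edgeR adjusted p = 0.807), so neither passed. With any 1 mouse left out the edgeR adjusted p of the former ran from 0.00226 to 0.185, with the call lost in 2 of 16 cases, and that of the latter from 0.0026 to 0.226, with the call lost in 8. With no filter on low counts neither was called (edgeR adjusted p = 0.0907 and 0.677), and with Gm42418 as a covariate the former was not (edgeR adjusted p = 0.199). In 3xTg-AD alcohol mice 51.9% of its 210 UMIs lay in 3 of the 52 nuclei. Snhg11 is abundant in nuclei with neuron markers, and at 600 UMIs it was found in 86.1% of them against 41.9% of the leptomeningeal nuclei. The part of neuronal RNA in its difference was not tested.

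Gm42418, a predicted transcript that overlaps ribosomal RNA sequence, fell with alcohol, and 3 control mice carried the difference. It stood at 58648, 40921, 5690 and 6452 CPM in WT control mice, 8065, 4021, 6627 and 7509 CPM in WT alcohol mice, 46394, 5113, 5236 and 8027 CPM in 3xTg-AD control mice and 3860, 4719, 5259 and 4159 CPM in 3xTg-AD alcohol mice. WT control mice 26 and 27 and 3xTg-AD control mouse 12 stood apart, and the other 13 mice lay between 3860 and 8065 CPM. The log2 difference was -2.70 (SE 0.78, edgeR adjusted p = 0.0189) between 3xTg-AD alcohol and WT control mice and -1.90 (SE 0.54, edgeR adjusted p = 0.0463) for alcohol averaged. With any 1 mouse left out each of these calls was lost in 13 of 16 cases. The former then ran from -2.90 to -1.80 (edgeR adjusted p up to 0.400) and the latter from -2.09 to -1.23 (edgeR adjusted p up to 0.259). Without those 3 mice both turned to the other sign, 0.62 and 0.41, and were not called. The same transcript was lower with alcohol in nuclei with neuron markers, at 1998 ± 486 against 6814 ± 5931 CPM (SD, n = 8 each, exact permutation test, adjusted p = 0.00761). The same 3 mice stood apart there, at 10984 to 18220 CPM. The other 5 control mice, at 2421 to 3452 CPM, overlapped the alcohol mice, at 1334 to 2677 CPM, only across genotypes. Within WT mice the lowest control mouse stood at 3005 CPM and the highest alcohol mouse at 2677 CPM. Within 3xTg-AD mice these values were 2421 and 2077 CPM, so every control mouse was above every alcohol mouse of its genotype.

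Whether a difference between groups was itself unlike that in the other nuclei was tested for 3 contrasts. Between 3xTg-AD alcohol and WT control mice 2 of 48 genes (4.17%) differed. Ptgds was 2.04 (log2, SE 0.57, edgeR adjusted p = 0.0301) further up in leptomeningeal nuclei than in the rest. Meg3 was 2.37 (log2, SE 0.69) further up, which is a description, since it entered the test through the 3xTg-AD alcohol mice. Neither was called without the 3 mice of 1 nucleus each. For genotype and for alcohol, each averaged over the other, none (0%) was called by edgeR, with 4 and 5 genes at an unadjusted p under 0.05.

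Of 8 genes singled out by earlier results of these data, Gm42418 has been given above, Tmsb4x was tested, and the other 6 did not pass the filter on low counts. Lars2, a mitochondrial leucyl-tRNA synthetase, had 172 UMIs, or 916 CPM against 534 CPM in the other nuclei, Thy1, a surface glycoprotein of neurons, 52 UMIs, or 277 CPM against 264 CPM, and Mrpl33, a mitochondrial ribosomal protein, 22 UMIs, or 117 CPM against 81.3 CPM. Cdh10 and Cdh11, type II cadherins, had 2 and 12 UMIs in the leptomeningeal nuclei, or 10.7 CPM against 154 CPM and 63.9 CPM against 118 CPM in the other nuclei. Cdk8, a kinase of the transcriptional mediator, had 13 UMIs in 12 nuclei, at 69.2 CPM against 71.0 CPM. Tmsb4x, the actin-binding thymosin beta 4, was 0.77 (log2, SE 0.30, edgeR adjusted p = 0.130) higher in 3xTg-AD than in WT mice and did not pass.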

How the data were processed

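Medial PFC of 16 mice was processed by the authors with 10x Chromium single-nucleus RNA-Seq (3′ kit v3.1), and per the submitters' processing notes reads were aligned to mm10 with Cell Ranger 6.1.1 (STAR). The deposited table holds raw counts, whole UMIs of 19999 genes in 114512 nuclei, not normalized. All its columns were used, the mouse of a nucleus being read from its column name and the group from the labels. The study names a quality filter on nuclei, whose limits are not given in the sources used here, and states slightly fewer nuclei after it than the table holds. A removal of doublets is not stated in them. No doublet caller was run. The limits on excluded genes allow 1 UMI and cover no mural gene, so nuclei of mixed type may remain, and a cap at the 95th percentile of UMIs was an alternative.

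Nuclei were chosen by the counts of marker genes, and the members and the 22 gene lists were chosen with earlier results of these data known. Named genes were the rule genes, the 20 with the largest fold among those with at least 100 UMIs, the called genes, the leptomeningeal markers, the 3 most abundant of each functional list and genes named by earlier results, and 1 leading gene, some list members and a further allele of the 3xTg-AD genotype are not reported here. Shares and depths per mouse were compared by two-sided exact permutation tests (scipy 1.17.1) adjusted over 7 comparisons. Counts summed per mouse were fitted over all 4 groups with edgeR 4.0.16 (TMM, filterByExpr, quasi-likelihood test) in R 4.3.3, with p-values adjusted over all genes tested, and with DESeq2 1.42.0 as an alternative. The minimum of 10 nuclei per mouse first set for this fit was met by 4 mice only, so the fit with all mice is reported. The adjustment in these nuclei covers 49 genes, of which Slc6a20a, a rule gene, is not reported. The fit of the other nuclei was added after the data were seen. On simulated counts with 106 genes changed by a log2 value of 2 among 678 tested over 10 draws, the fit for the leptomeningeal nuclei recovered 98 with 6 false calls. The fit against other nuclei recovered 15 of 15, and the fit of the other nuclei 193 of 194 with 6 false calls. These simulations covered alcohol averaged over genotypes only, so they do not show what the comparisons of single groups or the interaction can recover. Only a log2 change of 2 was simulated, so recovery of smaller differences is not shown. A dispersion, the square of the biological coefficient of variation, of 0.16 was used throughout. The fitted coefficient was 0.402 in the leptomeningeal and 0.166 in the other nuclei, so the setting does not match the latter. UMIs gathered in single nuclei were not simulated. Gene positions are from GENCODE vM21 (GRCm38).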

Additional observations from a re-analysis of the deposited data

Results flagged for a closer look

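Ptgds in the leptomeningeal nuclei of 3xTg-AD control mouse 21 stood at 33880 CPM, apart from the other 3 mice of its group, with a gap of 0.865 of the group's range. Gm42418 in those of 3xTg-AD control mouse 12 stood at 46394 CPM, with a gap of 0.929 of the range. In all 24 groups of values were looked at in this way, 2 stood out, and chance gives about 1 in 20. The alcohol difference of Meg3 was larger in 3xTg-AD than in WT mice by 3.37 on the log2 scale (edgeR adjusted p = 0.0225 for the interaction). That call was lost in 13 of 16 cases with 1 mouse left out, at adjusted p-values up to 0.411, and the difference was 2.06 (edgeR adjusted p = 0.788) without the 3 mice that stood apart in Gm42418. Meg3 passed the filter on low counts through the 3xTg-AD alcohol mice.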

How the results depend on the processing

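The depth limits the comparisons, since 1 to 22 leptomeningeal nuclei per mouse leave 48 genes to test, and most leptomeningeal markers cannot be compared between groups in them. No paired analysis was possible because the groups share no mouse numbers. The causes of the changes below were not tested. Alternatives with another denominator of vessel nuclei, without named mice or without limits, and all fits of the other nuclei, were chosen after seeing the data.

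The difference in share between 3xTg-AD control and WT control changed sign to 0.0143 percentage points with 0 UMIs of the excluded genes, 0.0298 with nuclei thinned to 1000 UMIs and 0.0452 leaving out the 3 Gm42418-rich mice, and ran from -0.0262 to 0.0119 with 1 mouse left out. The difference for genotype became -0.000254 at 5 marker UMIs, -0.00125 with no limits and -0.0058 without the mice with 1 nucleus, and ran from -0.00892 to 0.0285 with 1 mouse left out. That of 3xTg-AD alcohol from WT alcohol ran from -3.03e-05 to 0.0600. The alcohol difference passed at 15.4 points of vessel-wall and leptomeningeal nuclei and at 0.108 without the 3 Gm42418 mice, and ran from 0.0708 to 0.0973 with 1 mouse left out. The median UMIs per nucleus changed by mean in place of median to 236 for 3xTg-AD alcohol against WT alcohol and 393 for alcohol, which then passed, to -33.8 (3xTg-AD control against WT control) and -56.8 (genotype) without the 3 Gm42418 mice, and to -2.25 (genotype) without the mice with 1 nucleus. With 1 mouse left out these ran from -22.7 to 191 (3xTg-AD control against WT control), -45.1 to 135 (3xTg-AD alcohol against control), -160 to 44.4 (3xTg-AD alcohol against WT alcohol) and -38.4 to 68.1 (genotype).

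Numbers of called genes in the leptomeningeal nuclei changed as follows. Leaving out 1 mouse also let in genes, such as Lars2, that the filter on low counts removes with all mice. WT alcohol against WT control gave 1 by DESeq2, at 5 marker UMIs, at 0 excluded UMIs, under the cap on UMIs and without the Gm42418 mice, and 2 without the mice with 1 nucleus. 3xTg-AD alcohol against WT control gave 1 with no filter, at 5 marker UMIs and without ribosomal RNA-associated transcripts, and 0 with the covariate. 3xTg-AD alcohol against 3xTg-AD control gave 0 at 5 marker UMIs and at 0 excluded UMIs. 3xTg-AD alcohol against WT alcohol gave 1 with at least 10 nuclei per mouse, without ribosomal RNA-associated transcripts and without the mice with 1 nucleus, and 0 with no filter, at 5 marker UMIs and at 0 excluded UMIs. 3xTg-AD control against WT control gave 2 at 0 excluded UMIs and 1 without the Gm42418 mice, and genotype gave 1 at 0 excluded UMIs and 3 under the cap. The interaction gave 0 with DESeq2 size factors, no filter, 5 marker UMIs, without ribosomal RNA-associated transcripts, with the covariate and without the mice with 1 nucleus. Alcohol averaged gave 0 by DESeq2, with its size factors, with no filter, without ribosomal RNA-associated transcripts and with the covariate, and 2 at 0 excluded UMIs and without the mice with 1 nucleus. With 1 mouse left out the counts ran from 0 to 2, 1 to 4, 1 to 2, 1 to 3, 0 to 1, 0 to 3 and 0 to 5 for WT alcohol against WT control, 3xTg-AD alcohol against WT control, against 3xTg-AD control and against WT alcohol, interaction, genotype and alcohol. Gm42418 turned to 0.65 (3xTg-AD alcohol against WT control) and 0.54 (alcohol) with the covariate, which its construction fixes, since the covariate is Gm42418 itself, and to 0.62 and 0.41 without the 3 mice.

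Genes whose difference was unlike that of the other nuclei numbered 3 for alcohol with at least 10 UMIs as the only filter, and 0 for 3xTg-AD alcohol against WT control without the mice with 1 nucleus, and ran from 0 to 1 (genotype) and 0 to 3 (3xTg-AD alcohol against WT control) with 1 mouse left out. Leptomeningeal markers called in the other nuclei numbered 1 by DESeq2, 3 with the covariate and 6 without the Gm42418 mice for alcohol, 1, 3 and 4 for 3xTg-AD alcohol against WT control, and 3 with the covariate against 3xTg-AD control, and ran from 0 to 1 with 1 mouse left out.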
